A study of Mus musculus with 35 samples.

Results

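The growth factor BMP4 was added to mouse cells undergoing reprogramming with the factor combination labelled ODR, and RNA was sequenced at day 6. The comparison rests on 3 of the 35 libraries of the series: 1 ODR library grown with BMP4 (replicate 1 of that label) and 2 ODR libraries grown without it (replicates 1 and 2). The groups follow the sample labels, except that 1 further column with a treated label was left out for its values, as given in the next paragraph. Per the labels, all 3 cultures went into the reprogramming medium iCD1 after repeated infection with the factors. From then on the treated culture was given BMP4 (10 ng/ml), and the controls had no treatment. The labels give neither the meaning of ODR nor the starting cells, the promoters that drive the factors, or the origin of the replicates. The series as a whole follows ODR, OA, OB and other factor combinations over time to study reprogramming by Oct4 and the histone demethylase Kdm2b.

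A further ODR column could not be used as treated. The column labelled ODR with BMP4, replicate 2, holds the same value as ODR without BMP4, replicate 3, at all 21350 genes. Its Id3 value was 28, its Tnn value was 7, and Smad6 and Sost were listed at 0, so it lacked the marker levels of the treated library. It is called the shared library here and is given beside the results. The contrast therefore has 1 treated library and no replicate check, and no test was made in ODR. A comparison with replicates exists in another factor combination, labelled OB, with 2 libraries grown with BMP4 at the same dose and 4 without it at day 6. OB shares no library with ODR, and its contrast was tested with limma.

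Bone morphogenetic proteins are secreted ligands of the TGF-beta superfamily. They bind pairs of type I and type II serine/threonine kinase receptors, which phosphorylate Smad1, Smad5 and Smad9. These join Smad4, enter the nucleus and switch on target genes, among them the Id genes, which encode inhibitors of basic helix-loop-helix factors, and Smad6 and Smad7, which shut the pathway down again. The pathway is best known for directing mesenchymal cells towards bone and cartilage, and in fibroblast reprogramming for promoting the change to an epithelial state.

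The promoters of 4 direct targets are shown because these genes were higher with BMP4 in both factor combinations and carry different sequence matches. Each is the coding strand of the gene from 250 bases before to 50 after a RefSeq transcript start, on GRCm38.p6. Capitals mark GGCGCC, a GC-rich element that BMP Smads are known to bind, CAGAC or its reverse complement GTCTG, the core Smad element, or GTCTAGAC, its palindromic form. Both strands were searched, and the palindrome does not contain CAGAC or GTCTG. The palindrome was added to the search after the windows had been read.

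Id3, chr4:136143572-136143871, plus strand: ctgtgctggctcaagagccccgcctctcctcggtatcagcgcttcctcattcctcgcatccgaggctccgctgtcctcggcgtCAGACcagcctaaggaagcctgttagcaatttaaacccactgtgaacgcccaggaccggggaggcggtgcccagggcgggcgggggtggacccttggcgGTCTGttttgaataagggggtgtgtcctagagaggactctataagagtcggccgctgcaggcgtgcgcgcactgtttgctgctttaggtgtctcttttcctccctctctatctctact

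Id2, chr12:25096043-25096342, minus strand: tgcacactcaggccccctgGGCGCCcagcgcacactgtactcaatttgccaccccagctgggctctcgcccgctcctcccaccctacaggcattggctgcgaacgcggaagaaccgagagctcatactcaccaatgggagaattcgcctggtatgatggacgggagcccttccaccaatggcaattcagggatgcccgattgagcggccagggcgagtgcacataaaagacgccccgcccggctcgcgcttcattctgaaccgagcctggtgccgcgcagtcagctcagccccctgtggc

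Id4, chr13:48260866-48261165, plus strand: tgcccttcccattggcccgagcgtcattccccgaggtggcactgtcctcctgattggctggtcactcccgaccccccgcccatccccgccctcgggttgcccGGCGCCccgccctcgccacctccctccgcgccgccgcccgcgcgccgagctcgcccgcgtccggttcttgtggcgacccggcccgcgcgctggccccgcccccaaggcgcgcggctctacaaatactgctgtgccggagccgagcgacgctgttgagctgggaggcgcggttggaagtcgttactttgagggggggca

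Smad6, chr9:64022010-64022309, minus strand: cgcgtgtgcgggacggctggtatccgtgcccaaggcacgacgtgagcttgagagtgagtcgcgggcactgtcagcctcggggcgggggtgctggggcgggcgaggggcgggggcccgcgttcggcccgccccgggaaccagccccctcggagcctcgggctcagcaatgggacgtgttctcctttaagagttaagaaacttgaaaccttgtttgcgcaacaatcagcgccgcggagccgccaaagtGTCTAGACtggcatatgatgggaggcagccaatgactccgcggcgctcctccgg

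The Id3 window holds 2 matches to the core Smad element, the Id2 and Id4 windows hold 1 GGCGCC each, and the Smad6 window holds 1 palindrome. Of the 16 direct targets listed, 10 matched the RefSeq table with 12 windows. GGCGCC was in 5 of these 12 windows and in 11.9% of all 32851 windows. The core element was also in 5 of the 12 and in 49.6% of all windows. The palindrome was in 1 of the 12 and in 0.213% of all windows. A match describes the letters only and does not show binding.

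Values are normalized tag counts as deposited, with nearly equal library totals (4382771 to 4398785 in the ODR libraries of day 6). Read depth is therefore unknown, and the column ceiling of 18690 was reached by 9 or 10 genes per library. The highest values come in steps common to all columns, so small differences among them carry little information. In these bulk libraries, fewer cells of a type and less RNA per cell cannot be told apart. Pou5f1 (Oct4) was at the ceiling in all 3 ODR libraries. Kdm2b was 241 with BMP4 and 230 and 278 without, and its paralog Kdm2a was 686 with BMP4 and 791 and 783 without.

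All 5 markers chosen for the BMP4 response stood far above both controls in the treated library. They were chosen with earlier results of these data known, so their values describe the response and do not test it. Id3 (chr4:136143497-136145755, plus strand), an inhibitor of differentiation, was 780 with BMP4 and 20 and 22 without. This is 34.0 times the higher control when 1 is added to both values. Smad6 (chr9:63953076-64022059, minus strand), the inhibitory Smad, was 662 with BMP4 and listed at 0 in both controls. Sost (chr11:101962458-101967015, minus strand), which encodes the osteocyte Wnt antagonist sclerostin, was 383 with BMP4 and listed at 0 in both controls. The 2 genes thus appeared in a background where neither had any recorded value. Tnn (chr1:160085029-160153580, minus strand), the extracellular matrix protein tenascin-W, was 4217 with BMP4 and 8 and 16 without. Sox9 (chr11:112782224-112787760, plus strand), the chondrocyte transcription factor, was 420 with BMP4 and 16 and 15 without. The gene spans are those of GENCODE on mm10.

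The same genes rose with BMP4 in OB in the limma fit. Id3 was 1062 and 1194 with BMP4 and between 38 and 81 without (log2 fold change 4.24 ± 0.40 SE, adjusted p = 1.146e-06). Tnn was 1115 and 734 with BMP4 and between 31 and 49 without (4.53 ± 0.85, adjusted p = 0.000565). Sox9 was 241 and 148 with BMP4 and between 19 and 43 without (2.60 ± 0.65, adjusted p = 0.00506). Smad6 was 678 and 743 with BMP4 and between 1 and 3 without (7.83 ± 0.98, adjusted p = 1.543e-05). Sost was 220 and 174 with BMP4 and at most 1 without (7.37 ± 0.67, adjusted p = 8.41e-07). It passed the filter only through libraries with BMP4, among them those of OB, so the filter favours a rise there. Sox9 lost its call without OB with BMP4 replicate 1 (adjusted p = 0.0681); the other 4 kept theirs without each OB library. Tnn, Sox9 and Sost had higher values in the treated ODR library than in either treated OB library, and Id3 and Smad6 had lower ones. Those differences between ODR and OB were not tested.

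**Figure D1:**
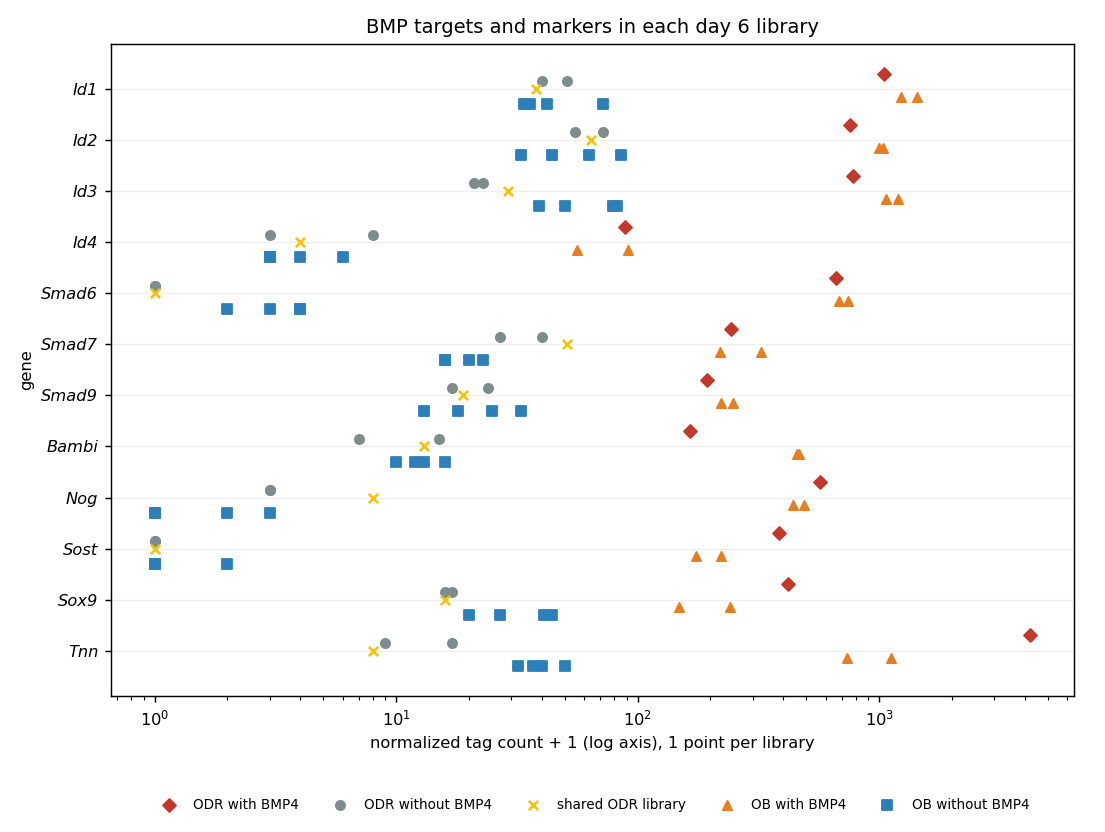
Normalized tag count plus 1 (log axis) of 12 BMP targets, antagonists and markers in each day 6 library of ODR and OB, 1 point per library; the shared ODR library is the cross. The treated ODR library lies beyond both ODR controls for all 12 genes, from 88 for Id4 to 4217 for Tnn, and the shared library lies with the controls.

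Across ODR without BMP4 these markers stayed low at the other times as well. Smad6 was 7 and 6 at day 1 and at most 4 at day 14, and Sost was listed at 0 in all 5 of those libraries. Tnn was 8 and 9 at day 1 and 74, 106 and 38 at day 14. Sox9 had the opposite course, with 56 and 50 at day 1 and 12 to 18 at day 14. Id3 was 43 and 54 at day 1 and 107, 98 and 166 at day 14. The treated library was thus above every ODR library of day 1 and day 14 for each of the 5 genes. At day 9, a single library deposited under 2 labels (ODDR and ODB with BMP4, identical at all genes) had 623 for Id3, 184 for Smad6, 32 for Sost and 1556 for Tnn. The untreated ODDR and ODB libraries had 16 and 15 for Id3, 4 and 6 for Smad6, 15 and 6 for Tnn, and Sost listed at 0. Sox9 differed less there, with 241 against 246 and 132.

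Of the genes in the table, 13860 reached 10 in 2 or more libraries and were compared. A gene was counted as higher with BMP4 when its value plus 1 in the treated library was at least 2 times that of the higher control, and as lower when the lower control was at least 2 times the treated library on the same scale. By this rule 972 genes (7.01%) were higher and 1222 (8.82%) were lower. Beyond 5-fold, 322 genes were higher and 351 lower. The shared library, set against the same controls, had 213 higher and 353 lower genes. The controls themselves differed at least 2-fold from each other at 574 genes in one direction and 505 in the other. Among the higher genes, 131 were listed at 0 in both controls, and among the lower genes, 228 were listed at 0 in the treated library. The filter was passed only through the libraries with BMP4 by 97 of the higher and 4 of the lower genes. At the edge of the rule, Ptgs2os was just inside with 25 against 12 and 12, and Ckb just outside with 304 against 152 and 124. On the lower side, Chrm2 was just inside with 12 against 25 and 38, and Tenm4 just outside with 396 against 792 and 848.

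Most of these genes moved the same way in OB. In the limma fit, 2083 genes (15%) rose and 2421 (17.5%) fell with BMP4 in OB at an adjusted p below 0.05. Of the 972 genes higher in ODR, 619 (63.7%) rose in OB and 21 fell. The libraries with BMP4 through which 97 of the 972 passed the filter include those of OB, so the filter favours a rise there. Among the 875 higher genes that passed without any library with BMP4, 540 (61.7%) rose in OB, against 14.4% of all 13689 genes that passed in this way. Of the 1222 genes lower in ODR, 688 (56.3%) fell in OB and 26 rose. Seen from OB, 29.7% of the genes that rose and 28.4% of those that fell were past the 2-fold rule in ODR. Across all 13860 genes the log2 differences had a Pearson r of 0.671 and a Spearman rho of 0.616. These describe genes, which are not independent replicates. The set includes genes that passed the filter only through libraries with BMP4, where the filter favours a rise. Such genes also enter the 29.7% above and the 1307 genes below. Among the 1307 genes called in the same direction in both, the median size was 2.06 in ODR and 2.2 in OB, and 660 were larger in ODR. The OB counts depended on the treated libraries: 1320 genes rose and 1763 fell without OB with BMP4 replicate 1, and 1156 rose and 1358 fell without replicate 2.

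**Figure D2:**
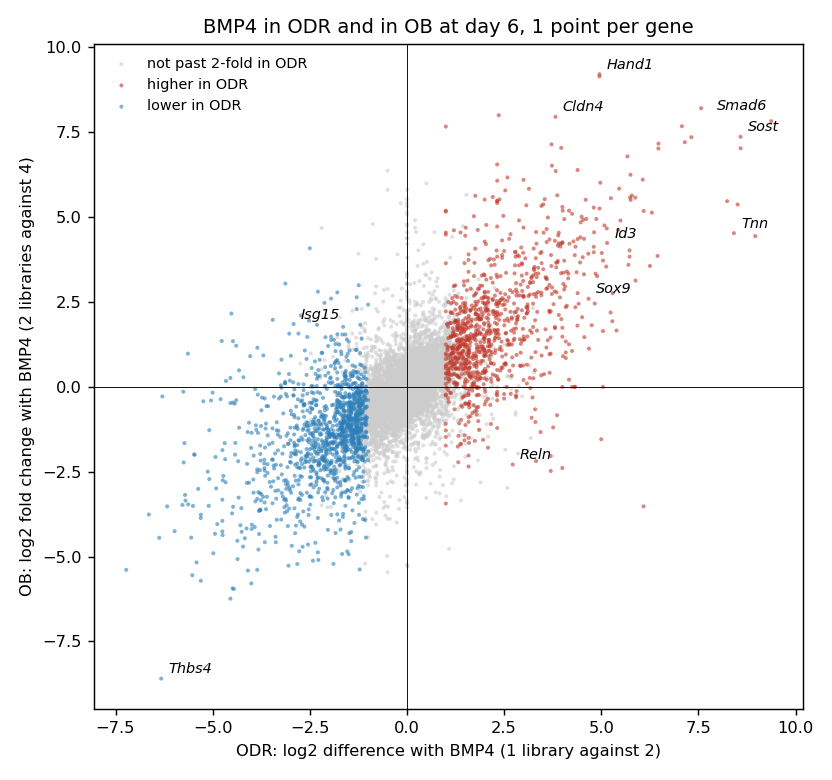
Log2 difference with BMP4 in ODR (horizontal, 1 library against the mean of 2) and log2 fold change in OB (vertical, 2 libraries against 4) for each of 13860 genes, on the log2(value + 1) scale. Red and blue points are the 972 higher and 1222 lower genes of ODR; most lie in the upper right and lower left, with Isg15 and Reln among the exceptions.

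Nearly all direct targets were higher. Of 16 measured, 14 were higher with BMP4 in ODR and none was lower, with a median log2 difference of 3.17 against 0.00409 over all genes. Id1 was 1046 with BMP4 and 39 and 50 without, and Id2 was 760 with BMP4 and 54 and 71 without. Id4 was 88 with BMP4 and 2 and 7 without. Smad7, the other inhibitory Smad, was 242 with BMP4 and 39 and 26 without. Smad9, which is both a receptor Smad and a target, was 193 with BMP4 and 23 and 16 without. Bambi, a decoy receptor without a kinase domain, was 164 with BMP4 and 6 and 14 without. All of these lay above both controls and above the shared library.

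Transcription factors were among the targets that were higher. Hey1, a Notch and BMP target, was 724 with BMP4 and 23 and 49 without. Gata2 was 422 against 45 and 54, and Gata3 was 153 against 32 and 35. The T-box repressors Tbx2 and Tbx3 were 294 and 298 with BMP4 and between 38 and 56 without. Junb, at 922 against 490 and 505, did not reach the 2-fold rule, and the cell cycle inhibitor Cdkn1a was 1331 against 1662 and 1556. In OB, 15 of the 16 rose and none fell; Cdkn1a was the exception (log2 fold change -0.11 ± 0.13, adjusted p = 0.563). The count in ODR was 14 with either control left out and 0 with the shared library counted as a second treated library.

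Most measured BMP ligand genes were lower. Of 10 measured, 7 were lower with BMP4 in ODR and 1 was higher (median log2 difference -2.10), but levels were low and 4 were lower with 10 in place of 1 added to each value. Gdf7 was 16 with BMP4 and 100 and 120 without, and Gdf6 was 8 with BMP4 and 52 and 39 without. Bmp3 was 5 with BMP4 and 41 and 44 without. Bmp5 was listed at 0 with BMP4 and was 40 and 24 without. Bmp4 itself was 5 with BMP4 and 18 and 34 without, so the transcript of the added factor was low in the treated cells. The higher one was Gdf10 (BMP3B), at 326 with BMP4 and 13 and 14 without. In OB, Gdf10 rose and Gdf7, Gdf6 and Bmp3 fell in the limma fit, while Bmp4 was 16 and 14 with BMP4 and between 12 and 18 without (log2 fold change 0.04 ± 0.40, adjusted p = 0.960). Without OB with BMP4 replicate 1, Gdf6 (adjusted p = 0.225) and Gdf7 (adjusted p = 0.0613) lost their calls.

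Receptors, co-receptors and Smads were mixed, with 4 higher and 4 lower of 14 measured. The type I receptors Bmpr1a (5070 against 1295 and 1114) and Acvr1 (754 against 264 and 307) were higher with BMP4, as were the type II receptor Bmpr2 (1974 against 805 and 790) and Smad5 (3017 against 576 and 614). Of the co-receptors measured, 3 were lower. The repulsive guidance molecules Rgma and Rgmb were 16 and 122 with BMP4, against 162 and 192 for Rgma and 258 and 292 for Rgmb, and Tgfbr3 (betaglycan) was 44 against 332 and 426. The co-receptor endoglin (Eng) was 194 against 274 and 382 and did not reach the 2-fold rule. Acvr2b, a type II receptor near the floor, was the fourth lower gene, at 1 against 5 and 7. The type II receptor Acvr2a (250 against 342 and 320) and Smad1 (450 against 234 and 286) were short of the rule, as were the type I receptors Bmpr1b (32 against 24 and 4) and Acvrl1 (7 against 5 and 2). In OB the same 4 genes that were higher rose, and Rgma, Rgmb and Tgfbr3 fell; Bmpr1a lost its call without OB with BMP4 replicate 1 (adjusted p = 0.0555). Smad5 there had a log2 fold change of 1.68 ± 0.24 (limma adjusted p = 6.113e-05), smaller than the 2.34 of ODR, a difference that was not tested. Smad4, the shared partner, was 323 with BMP4 and 324 and 274 without.

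Secreted antagonists included some of the largest differences. Nog (noggin, chr11:89300638-89302332, minus strand), which binds BMP4 and blocks its receptors, was 569 with BMP4 and 2 in both controls. Sostdc1 was 122 against 12 and 38, Bmper was 161 against 44 and 47, and Nbl1 was 1096 against 475 and 530. Gremlin 1 (Grem1), of the DAN family, went the opposite way, at 2183 with BMP4 and 7097 and 6248 without. In all, 6 of 16 measured antagonists were higher and 2 lower, and all 8 passed the limma test in the same direction in OB. Of these, Sost passed the filter only through libraries with BMP4, and without it 5 of 15 were higher. Grem1 lost its call without OB with BMP4 replicate 1 (adjusted p = 0.0664) or 2 (adjusted p = 0.0965), and Vwc2 without replicate 2 (adjusted p = 0.117).

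Homeobox genes of the Msx and Dlx families, known BMP targets in limb and face, were mostly higher: 5 of 6 measured, with Dlx5 lower near the floor (0 against 2 and 6). Dlx3 passed the filter only through libraries with BMP4, and without it the count was 4 of 5. Msx1 was 690 with BMP4 and 54 and 49 without, and Msx2 was 380 with BMP4 and 26 and 20 without. Dlx2 was 200 against 1 and 0, Dlx1 was 259 against 16 and 9, and Dlx3 was 43 and listed at 0 in both controls. Strand use in the authors' counting is not given, so reads of Dlx1 and its antisense RNA cannot be told apart. All 5 rose in OB in the limma fit, Dlx1 only with both treated OB libraries (adjusted p = 0.126 and 0.0607 without replicates 1 and 2). The size differed for Msx1, at 1718 and 1894 in treated OB and 9 to 16 in untreated OB, and for Dlx1, at 39 and 20 in treated OB and 0 to 4 in untreated OB. These differences between ODR and OB were not tested.

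The largest differences outside the BMP pathway named a mixed set. Among the 15 largest on the higher side was Foxq1, a forkhead factor, at 364 with BMP4 and listed at 0 in both controls. Fmod (fibromodulin), a tendon proteoglycan, was 542 with BMP4 and 0 and 1 without. The glutamate receptor gene Grik3 was 603 against 1 and 1, and the lens connexin gene Gja3 was 478 against 2 and 2. Wnt11 was 637 against 6 and 9, and the myelin and lymphocyte gene Mal was 370 against 2 and 5. Kif26a, Rims3 and Olfr78 had 434, 306 and 134 in the treated library and at most 5 in either control. Sost, also among the 15, passed the filter only through libraries with BMP4, so the filter favours a rise in OB. All 15 rose in OB, where Mal was 58 and 39 with BMP4 and lost its call without replicate 1 (limma adjusted p = 0.0772).

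On the lower side, B3galt2 and Vstm2a were listed at 0 with BMP4, against 138 and 160 for B3galt2 and 77 and 127 for Vstm2a. Thbs4 (thrombospondin 4), a tendon matrix protein, was 1 with BMP4 and 118 and 215 without, and Dpt (dermatopontin) was 1 against 122 and 223. Trp63 (p63), the master factor of stratified epithelium, was 2 against 148 and 132. The neuropeptide genes Nts (12 against 274 and 258) and Ucn3 (18 against 408 and 410) were also lower, as were Nptx2 (21 against 790 and 958), Thsd7b (14 against 472 and 475) and Arhgap36 (19 against 454 and 576). Trim61, Grip2 and Osbp2 completed the smaller ones, with 33, 6 and 5 in the treated library. Nid1 (nidogen 1) was 648 against 9301 and 18690, and Serpina3n, which has near-identical paralogs, was 654 against 9297 and 18690; with 1 control at the ceiling, both differences are lower bounds. Of these 15 genes, 13 fell in OB; Ucn3 (20 and 22 against 23 to 45, limma adjusted p = 0.668) and Nid1 (836 and 1636 against 5077 to 5616, adjusted p = 0.0615) did not pass. Dpt and Serpina3n lost their calls without either treated OB library in turn (adjusted p from 0.0663 to 0.150). Without OB with BMP4 replicate 2, Trp63 (adjusted p = 0.108), B3galt2 (adjusted p = 0.0524) and Grip2 (adjusted p = 0.0643) lost theirs as well.

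**Figure D3:**
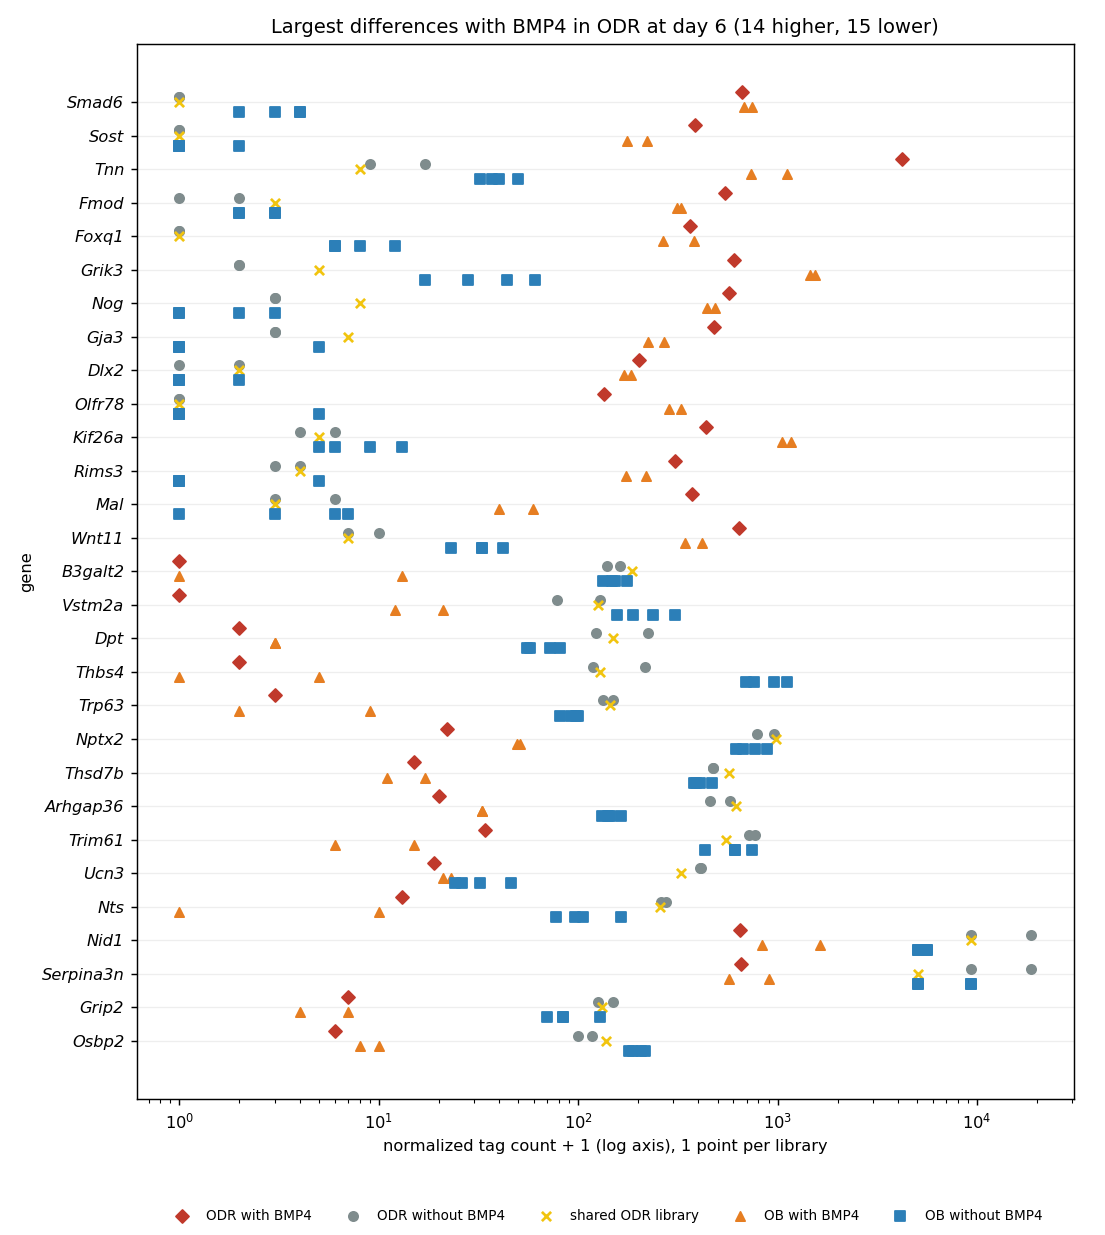
Normalized tag count plus 1 (log axis) of 14 of the 15 genes most above and the 15 most below the ODR controls with BMP4, 1 point per day 6 library of ODR and OB. Treated and untreated libraries separate in ODR for every gene shown, and Ucn3 is the gene whose untreated OB level (23 to 45) lies nearest the treated ones (20 and 22).

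Skeletal genes did not move as 1 block. Of 16 osteoblast and osteocyte genes measured, 5 were higher and 3 lower in ODR. Over all genes, 7.01% were higher and 8.82% lower, which is the share to set beside the counts of this paragraph. Sost and Sp7 passed the filter only through libraries with BMP4, and without them 3 of 14 were higher. Besides Sost, Spp1 (osteopontin) was 6251 with BMP4 and 850 and 787 without, and Pth1r, the parathyroid hormone receptor, was 495 against 201 and 230. The osteoblast factor Sp7 (osterix) was 10, and the Wnt inhibitor Dkk1 was 27, each listed at 0 in both controls. Runx2 (240 against 94 and 144) and Alpl (760 against 280 and 404) lay above both controls but short of 2-fold, and without control replicate 2 the list had 9 higher members. Among 17 chondrocyte genes, 4 were higher and 1 lower, and with 10 added to each value 1 was higher and 1 lower. The matrix genes that define cartilage stayed near the floor: Acan was listed at 0 in all 3 libraries and Col2a1 was 4 against 1 and 4. Sox6, a partner of Sox9, was 2 against 28 and 67.

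Several fibroblast matrix genes were lower and others did not reach the 2-fold rule. Of 20 fibroblast genes, 8 were lower and 1 was higher with BMP4, with a median log2 difference of -0.52. Lum (lumican) was 82 with BMP4 and 608 and 906 without, and Dcn (decorin) was 144 against 670 and 1187. Of the collagen genes, Col1a2 was 548 against 3178 and 7101, Col5a1 was 973 against 3986 and 4214, and Col3a1 was 1754 against 5626 and 9314. Other matrix genes did not reach the rule: the fibronectin gene Fn1 was 9308 in all 3 libraries, Col6a1 was 802 against 996 and 1256, and Fbln2 was 378 against 364 and 408. The Fn1 value lies among the high steps common to all columns, where small differences cannot be read. The collagen crosslinking enzymes Lox (721 against 590 and 772) and Loxl1 (116 against 124 and 136) were short of the rule as well. The higher gene was S100a4, at 318 against 136 and 124, and it was short of the rule with the shared library added to the controls. Vim was at the ceiling in all 3 libraries, where no difference can be read, and Thy1 was 2178 against 1350 and 1242. In OB, 9 of the 20 fell and 4 rose (6 fell and 3 rose when either treated OB library was left out). Among 17 matricellular genes 5 were higher and 5 lower; Tnc (tenascin-C) was 209 against 888 and 1108 and Thbs2 was 1364 against 5078 in both controls, opposite to Tnn. Thbs1 was at the ceiling in the treated library, but also in the shared library, against 6246 and 9306.

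Genes of other signalling pathways were past the 2-fold rule as well. Of 19 Wnt pathway genes, 10 were higher and 3 lower. They included the nuclear factors Lef1 (174 against 5 and 11) and Tcf7 (84 against 5 and 7) and the feedback inhibitors Nkd1 (522 against 15 and 44) and Notum (120 against 0 and 4). Axin2, the most widely used Wnt target, was 108 against 122 and 160 and was not among them. Of 17 Notch pathway genes, 7 were higher and 2 lower. Hes1 was 114 against 9 and 4, the ligand Jag1 was 786 against 140 and 146, and the feedback gene Nrarp was 34 and listed at 0 in both controls. With 10 added to each value, 8 Wnt genes were higher and 3 lower, and 5 Notch genes were higher and 0 lower. No Notch gene was lower with the shared library added to the controls either. Of 18 TGF-beta targets, 6 were higher and 2 lower, led by Tgfbi at 5614 against 473 and 658 and the Smad corepressor gene Skil at 850 against 199 and 171. The lower genes were Dkk2, Sfrp2 and Sfrp4 of the Wnt list, Dll4 and Jag2 of the Notch list, and Col1a1 and Col3a1 of the TGF-beta list. In OB, 10 Wnt, 6 Notch and 9 TGF-beta genes rose and 3, 1 and 3 fell in the limma fit. Jag2 was among those that rose. Without OB with BMP4 replicate 1, 7 Wnt, 5 Notch and 8 TGF-beta genes rose, and without replicate 2, 7, 4 and 7 rose.

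Epithelial genes had fewer members past the rule in ODR than passed the test in OB. The ODR rule asks for 2-fold and the OB test has no fold limit, so these counts are not on the same scale. In OB, 13 of 17 measured epithelial genes rose and 1 fell, with a median log2 fold change of 2.41; 10 rose without OB with BMP4 replicate 1 and 8 without replicate 2. Of the 17, Cldn3, Ovol2, Marveld2 and Crb3 passed the filter only through libraries with BMP4. Among the other 13, 9 rose and 1 fell in OB, with a median of 2.32, and 3 were higher and 1 lower in ODR. In ODR, 4 of the 17 were higher and 1 lower, with a median of 0.10, and 2 were higher with 10 added to each value. Without control replicate 1, 7 were higher and 3 lower. Cdh1 (E-cadherin), the defining gene, was listed at 0 in all 3 ODR libraries, as were Crb3 and Ovol2. In OB, Cdh1 was 34 and 107 with BMP4 and at most 2 without (log2 fold change 5.15 ± 0.78, limma adjusted p = 8.4e-05). Cldn4 was 19 in treated ODR and 1 and 0 in the controls, but 657 and 1148 in treated OB and 1 to 4 in untreated OB. Dsp (desmoplakin), of the desmosome, was higher in ODR, at 1409 against 237 and 271. Whether the response differs between ODR and OB was not tested.

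Of 9 factors that drive the mesenchymal state, 2 were higher and 2 lower (4 higher without control replicate 2): Snai2 (92 against 256 and 252) and Zeb1 (180 against 430 and 455) were lower, and Prrx2, a mesenchymal homeobox gene, was 388 against 3 and 12. Of 15 pluripotency genes measured, 5 were higher and 2 lower (4 lower without control replicate 1, and 1 lower without Esrrb, which passed the filter only through libraries with BMP4). Klf4 was 239 against 61 and 80 and Tfcp2l1 was 191 against 63 and 57, and Sall4 was 30 against 0 and 5. The 2 lower genes were Klf2 and Esrrb. With 10 added to each value, 4 of the 15 were higher and 0 lower. In OB, 5 of the 15 rose and 2 fell (3 rose and 1 fell when either treated OB library was left out). Klf4 and Sall4 rose there and Klf2 fell, Tfcp2l1 was not called, and Esrrb rose, opposite to ODR. Sox2 was 3 against 1 and 2, and Nanog, Zfp42 and Dppa5a had at most 4 in any of the 3 libraries and did not pass the filter. In the embryonic stem cell library of the series, Sall4 was 1310 and Tfcp2l1 was 6244.

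Interferon-stimulated genes were lower with BMP4 in ODR. Of 20 measured, 12 were lower in ODR and none was higher, with a median log2 difference of -1.64; all 20 had a negative log2 difference. Isg15, a ubiquitin-like protein, was 20 with BMP4 and 120 and 207 without. Irf7, the factor that drives the type I response, was 29 with BMP4 and 199 and 282 without. The antiviral Oasl2 was 8 against 95 and 226, Ifit1 was 9 against 58 and 112, and Rtp4 was 19 against 100 and 129. The shared library was also below both controls for several of them, at 115 for Isg15, 186 for Irf7, 55 for Oasl2 and 57 for Rtp4, and its sum over the list was 3194, against 3953 and 4914 in the controls and 1575 in the treated library. With the shared library added to the controls, 10 were lower.

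In OB the same list had 9 members that rose and none that fell, with a median log2 fold change of 0.94. Rtp4 was 66 and 90 with BMP4 and 13 to 24 without (1.95 ± 0.41, limma adjusted p = 0.00138). Isg15 was 72 and 172 with BMP4 and 25 to 38 without (1.85 ± 0.51, adjusted p = 0.0100), and lost its call without OB with BMP4 replicate 2 (adjusted p = 0.203). Untreated OB was thus far below untreated ODR for both genes and close to the treated ODR library. That count rested on single libraries: 1 rose without OB with BMP4 replicate 2, 3 without OB without BMP4 replicate 4, 7 without OB with BMP4 replicate 1 and 1 with the replicate number as a block. Untreated ODR had 45 and 25 for Isg15 at day 1 and 38, 59 and 148 at day 14, so 1 day 14 library lay between the day 6 controls and the others lay below them. The OA libraries of day 6 had 116, 61 and 82.

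**Figure D4:**
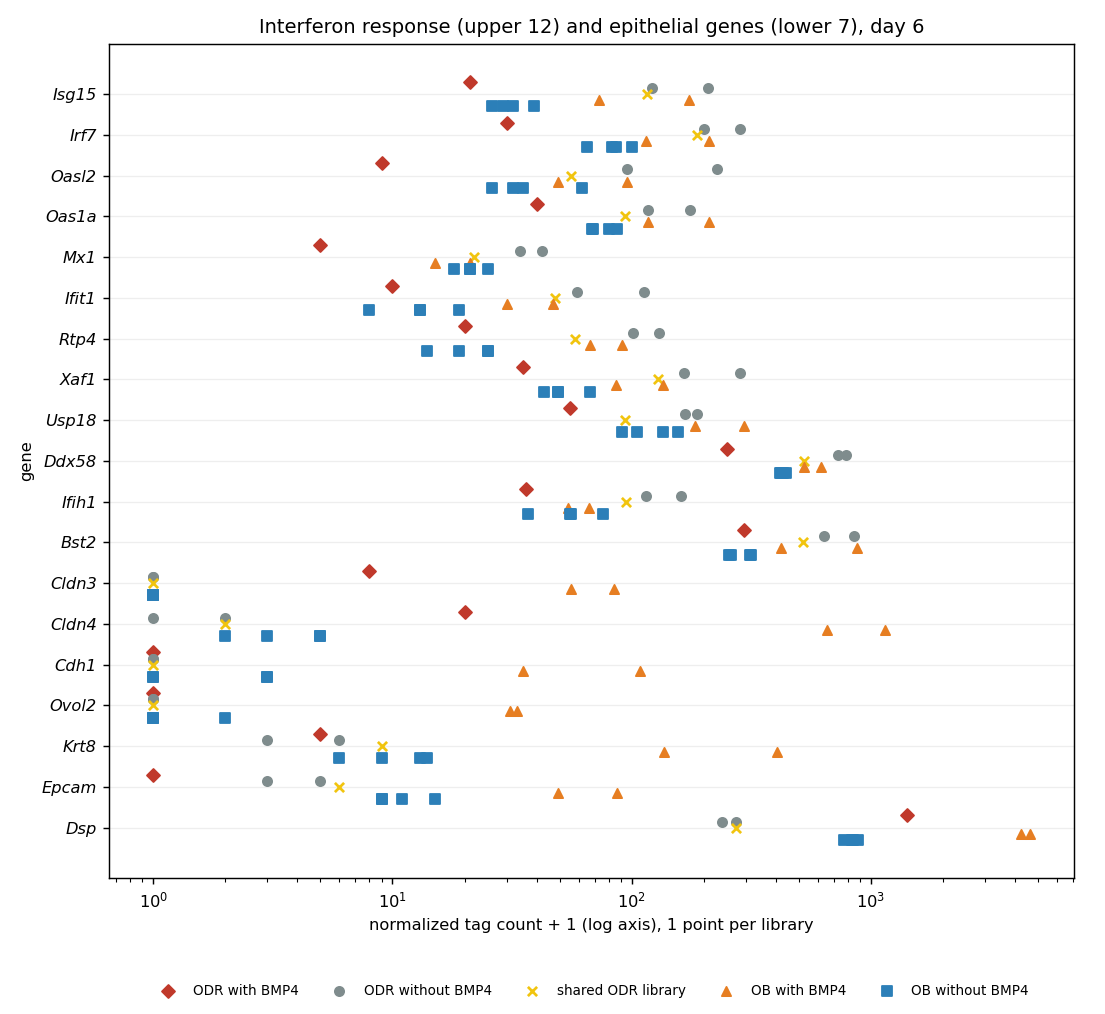
Normalized tag count plus 1 (log axis) of 12 interferon-stimulated genes and 7 epithelial genes in each day 6 library of ODR and OB, 1 point per library. For the interferon genes the treated ODR library is the lowest of the ODR libraries, 20 against 120 and 207 for Isg15, and for Cdh1 all ODR libraries are at 0 while treated OB is at 34 and 107.

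Cell cycle genes were nearly level in ODR. Of 25 measured, Rrm2 was the 1 gene past the 2-fold rule, at 1038 against 440 and 367, and the median log2 difference was 0.03. The OB test had no fold limit, so its counts are not on the scale of the 2-fold rule. The median log2 fold change of these genes in OB was 0.54. In OB, 12 of the 25 rose and none fell (7 without OB with BMP4 replicate 1 and 6 without replicate 2). Of 18 CDK inhibitor and p53 target genes, 1 was higher and 2 were lower in ODR, near the 7.01% and 8.82% of all genes. Cdkn2d was 328 against 128 and 160, Cdkn1c was 174 against 502 and 564, and Ccng1 was 3007 against 9294 in both controls. With 10 added to each value, 0 were higher and 2 lower. Of 12 genes for reprogramming factors and Polycomb proteins, none was past the rule in either direction.

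Markers of other lineages and cell types were followed as well. Neural genes were split, with 6 of 14 higher and 5 lower (3 and 3 at a fold of 3). Fabp7 was 557 against 61 and 28 and Sox1 was 472 against 108 and 160. Nefl was 128 against 357 and 559 and Sox3 was 26 against 94 and 97. The median log2 difference of the neural list was 0.66 in ODR and its median log2 fold change was -0.84 in OB. There Fabp7 was the 1 gene that rose, Sox1 was not called, and 7 fell (6 and 4 without treated OB replicates 1 and 2). Of 11 primitive endoderm genes, 5 were higher and 2 lower, with the laminin gene Lama1 at 638 against 51 and 59 and the other 4 higher genes at 68 or less. Sox17 and Sox7 passed the filter only through libraries with BMP4, and without them 3 of 9 were higher. With 10 added to each value, 3 of the 11 were higher and 1 lower. Hand1, a mesoderm and trophoblast factor, was 30 and listed at 0 in both controls, and in OB it was 524 and 669 with BMP4 and listed at 0 without. It passed the filter only through libraries with BMP4. Besides it, 1 of 6 mesoderm genes and 1 of 8 trophoblast genes were higher, with 0 and 1 lower. Over all genes, 7.01% were higher and 8.82% lower. Of 9 tendon genes, 2 were higher and 4 lower. Of 10 endothelial genes 3 were lower and none was higher, and of 5 adipocyte genes 1 was higher and 2 lower. Of 10 macrophage genes 2 were higher and 1 lower, of 15 smooth muscle genes 1 was lower, and of 5 skeletal muscle genes none was past the rule. Without control replicate 1 these lower counts became 3 for smooth muscle and 5 for endothelial genes, and 6 macrophage genes were higher. With 10 added to each value, 0 macrophage genes were higher, and 1 endothelial and 1 adipocyte gene were lower. Within the inflammatory secretory list, 2 of 20 were higher (5 without control replicate 2) and 6 lower, with Plau at 28 against 200 and 218 and Lif at 6 against 44 and 47. With 10 added to each value, 0 of that list were higher and 5 lower.

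**Figure D5:**
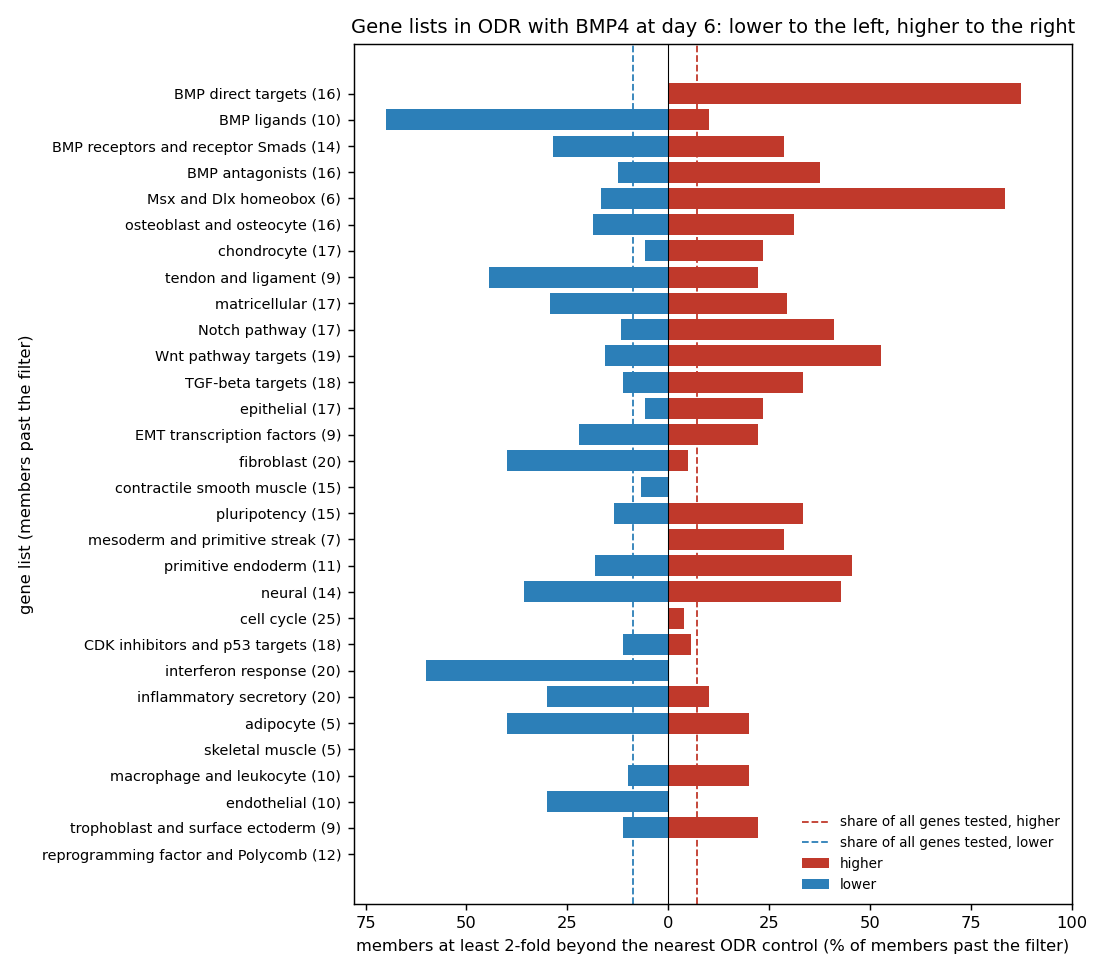
Share of the measured members of each of 30 gene lists that were higher (right, red) or lower (left, blue) with BMP4 in ODR, in percent; dashed lines mark the 7.01% and 8.82% of all genes. Direct targets reach 14 of 16 on the right and interferon genes 12 of 20 on the left.

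Many genes that were lower with BMP4 were higher late than early in untreated ODR cells. Between day 1 and day 14 in ODR without BMP4, 8.58% of all genes were higher and 6.94% lower when every day 14 library had to lie at least 2-fold beyond every day 1 library. Of the 1222 genes lower with BMP4, 436 (35.7%) were higher at day 14 and 104 (8.51%) were lower. Of the 972 genes higher with BMP4, 161 (16.6%) were higher at day 14 and 151 (15.5%) were lower. Thbs4 was 7 and 1 at day 1 and 922, 922 and 650 at day 14, and Trp63 was 22 and 4 at day 1 and 254 to 354 at day 14. Lum was 393 and 361 at day 1 and 1088, 790 and 1040 at day 14. These libraries are not those of the BMP4 contrast.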

How the data were processed

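RNA was poly-A selected, per the labels' protocols, and the submitters' processing notes name bcl2fastq, RSEM and Bowtie2 2.2.5, with mm10 as the build. The deposited values are a normalized tag count score per gene, in whole numbers; how the authors normalized them is not given. These are not read counts, so depth per library is unknown and no count test was used. The 35 columns total 4255921 to 4398785, and 0 columns belong to another series.

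The identical columns were left out. Genes that reached 10 in 2 or more of the fitted libraries were compared (13860 of 21350). In ODR, values + 1 of the treated library were compared with both controls, with no test. OB was tested with limma 3.58.1 (R 4.3.3) on log2(value + 1), two-sided, Benjamini-Hochberg adjusted over all genes, with a mean per group over 27 libraries (16 residual degrees of freedom) and no replicate block. Nothing says that replicates are separate cultures, so the spread behind the p-values may be technical only. Both procedures were run on simulated data with independent normal noise. That run checks the code and says nothing about the labels or replicates of these libraries. Python 3.11.15 was used for the rest.

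Members and the 30 gene lists (475 of 479 genes in the table) were chosen with earlier results of these data known. Named genes are the 5 markers; the 15 largest log2 differences each way among genes past 2-fold with a value or control mean of at least 100; and up to 6 members past 2-fold each way per list. Predicted genes were left out. A few genes chosen by this rule are not reported here. Other genes named, such as Axin2, Acan, Cdh1 or Reln, are list members short of the rule or were singled out after their values were seen. Promoters are from RefSeq (GRCm38.p6). Alternatives changed the pseudocount, filter, fold, centring, libraries, block and limma options.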

Additional observations from a re-analysis of the deposited data

Results flagged for a closer look

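With 1 treated ODR library the opposite directions below were not tested as a difference between ODR and OB; the treated ODR library lies beyond both controls one way, and both treated OB libraries lie beyond all 4 untreated ones the other way. The genes given are those past the 2-fold rule in ODR, with a level of at least 100, that limma called in the other direction in OB. Reln, a secreted guidance protein of the nervous system, had a log2 difference of 2.72 in ODR (1317 against 179 and 221) and fell in OB (log2 fold change -2.29 ± 0.53, adjusted p = 0.00285), a call lost without OB with BMP4 replicate 2 (adjusted p = 0.0761). The kinase gene Dclk2 (1.69 in ODR), the actin-binding Limch1 (1.75), the lysosomal Arsb (1.35) and the integrin-binding Adam23 (1.48) also fell in OB. Without that library Dclk2 (adjusted p = 0.295), Limch1 (0.219) and Arsb (0.278) lost their calls, as they did without some of the other OB libraries, and Adam23 kept its call under all 13 alternatives.

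On the lower side, 5 interferon-stimulated genes had log2 differences in ODR of -2.92 (Isg15), -2.63 (Xaf1), -2.52 (Rtp4), -1.84 (Oas1a) and -1.32 (Bst2), and all rose in OB with all libraries. Without OB with BMP4 replicate 2, the limma calls of Isg15 (adjusted p = 0.203), Xaf1 (0.354), Oas1a (0.354) and Bst2 (0.387) were lost, and Rtp4 kept its call. Xaf1 also lost its call without OB with BMP4 replicate 1 or without untreated OB replicate 2, 3 or 4 (adjusted p from 0.0604 to 0.0924), and Oas1a without untreated replicate 2 or 4 (0.0550 and 0.0551). Mgarp at -1.84, Camk1d at -1.55 and Spns2, a sphingosine phosphate transporter, at -2.12 likewise rose in OB. Mgarp (adjusted p = 0.251) and Spns2 (0.0977) lost their calls without OB with BMP4 replicate 2, and Camk1d kept its call.

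In untreated OB at day 6, 1 of the 4 libraries stood apart from the others at very low values for 5 genes. These were Sost at 1 and Gja3 and Olfr78 at 4 in replicate 3, and Dlx2 at 1 and Rims3 at 4 in replicate 1. For continuous values chance gives such a gap in about 1 of 20 groups; among whole numbers this near 0 a single nonzero library is enough, so that rate need not hold.

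The library labelled OA day 14 replicate 2, which has no BMP4 label, carried levels of the BMP4 markers above the other OA libraries: 2216 for Tnn, 122 for Smad6, 90 for Sox9 and 12 for Sost. The other 2 OA day 14 libraries had 116 and 90 for Tnn, 7 and 2 for Smad6, 28 and 6 for Sox9, and Sost listed at 0. Against them it was at least 2-fold higher at 1050 genes (7.58%) and lower at 1265 (9.13%); it was higher at 47.1% of the genes that were higher with BMP4 in ODR, and lower at 47.5% of those that were lower. Its Kdm2a value was 721, against the ceiling of 18690 in both others.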

How the results depend on the processing

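The ODR counts of 972 higher and 1222 lower genes became 641 and 743 with 10 added to each value, 1650 and 1944 at a fold of 1.5, 570 and 697 at a fold of 3, and 82 and 99 with the shared library as a second treated library. Leaving out a control gave 1303 to 1416 higher and 1548 to 1603 lower genes. The other alternatives, among them no filter (1405 and 1493), the shared library added to the controls (859 and 1029) and, chosen after seeing the data, genes that pass the filter without libraries with BMP4 (875 and 1218), stayed within 1.5 times. With the shared library as treated, the log2 difference changed sign for Gata4 (-0.15), Mmp9 (-0.18), Cxcl2 (0.085) and Esam (0.0688), all at low levels; the cause was not tested. For OB, leaving out 1 library gave 1156 to 1949 genes that rose and 1358 to 2234 that fell. Of 175 named genes, 136 were called in OB, and 94 kept the call under all 13 alternatives. The labels do not say that replicate numbers pair libraries: same-numbered OB libraries deviated with a correlation of 0.0431 and -0.112 over 13860 genes, and with the replicate block 1405 genes rose and 1745 fell. Without the library labelled OA day 14 replicate 2, an alternative chosen after seeing the data, 2380 rose and 2782 fell. No ODR difference has a replicate check, and read depth is unknown.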

Other observations

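Id1 had another order at day 9 than at day 6. It was 9301 in both untreated libraries (labelled ODDR and ODB) and 5616 in the library with BMP4, whereas in ODR at day 6 it was 1046 with BMP4 and 39 and 50 without. The factor labels are not expanded, and the source of the Id1 reads at day 9 was not tested.

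The mouse embryonic fibroblast library of the series had some BMP targets at levels near those of treated ODR and others far below. Id3 was 422 and Smad7 420 in the fibroblasts, against 780 and 242 in the treated ODR library. Smad6 was 51, Id1 76, Msx1 4 and Nog 14 in the fibroblasts, against 662, 1046, 690 and 569 in the treated ODR library. Fmod was 508 in the fibroblasts, listed at 0 and 1 in the ODR controls and 542 in the treated library. With 1 library on each side, these are values and not a comparison of conditions.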
